A study of Mus musculus with 6 samples.

Results

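The insulin-like growth factor (IGF) family was followed here as 10 genes of the mouse hippocampus: the ligands Igf1 and Igf2, the receptor Igf1r, the binding protein genes Igfbp2, Igfbp3, Igfbp4, Igfbp5, Igfbp6 and Igfbp7, and the binding protein-like gene Igfbpl1. The genes were taken by symbol from a table of 15423 genes, and all 10 were found and tested. They were chosen by the measured difference between the groups in these same libraries, in which Igfbpl1 had the smallest p-value of all genes and Igfbp2 and Igf2 were called, so their differences between groups are given as a description and carry no test. Libraries came from 3 control (CTR) mice, numbered 1, 2 and 5, and 3 "Short Day" (SD) mice, numbered 2, 5 and 6, all of the inbred strain C57BL/6J. CTR mice lived under the standard cycle of 12 h light and 12 h dark. SD mice were the offspring of breeders moved at 6 weeks of age to a cycle of 8 h light and 8 h dark at 100 lux, and stayed in that cycle through gestation and up to postnatal day 42. Age at sampling, sex and litter are not given in the labels, so the spread between mice of a group may hold differences of litter or sex, and the cycle cannot be told apart from what the parents' own exposure did.

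IGF1 and IGF2 are secreted growth factors that signal through the IGF1 receptor, a tyrosine kinase whose activity feeds the PI3K, AKT and mTOR kinases. Most extracellular IGF is held by binding proteins, which prolong its life and hand it to or keep it from the receptor. In the rodent brain, IGF2 is known mainly from the choroid plexus and the meninges, whereas IGF1 comes from several neural and glial cell types and IGF1R is widespread in neurons.

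On the GRCm38 mouse genome (GENCODE M21 positions, here and for the other members), Igfbp2 (chr1:72824503-72852474, plus strand) and Igfbp5 (chr1:72857932-72874884, minus strand) lie tail to tail with 5457 bases between them, yet their levels behaved differently over the 6 mice, 5.77-fold between the highest and lowest mouse for Igfbp2 and 1.29-fold for Igfbp5. The 250 bases before the start of each gene, as RefSeq places it, are therefore shown, 5′ to 3′ on the strand of the gene, from GRCm38.p6 (chr1:72824230-72824479 for Igfbp2 and chr1:72874866-72875115, minus strand, for Igfbp5). Capitals mark the E-box, the letters CACGTG that read alike on both strands and are known as the motif bound by the CLOCK and BMAL1 clock proteins.
Igfbp2: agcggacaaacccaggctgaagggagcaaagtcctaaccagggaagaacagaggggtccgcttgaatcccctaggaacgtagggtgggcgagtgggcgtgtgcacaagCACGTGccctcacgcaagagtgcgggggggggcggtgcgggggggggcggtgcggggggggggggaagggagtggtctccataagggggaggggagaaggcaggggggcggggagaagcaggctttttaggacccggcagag
Igfbp5: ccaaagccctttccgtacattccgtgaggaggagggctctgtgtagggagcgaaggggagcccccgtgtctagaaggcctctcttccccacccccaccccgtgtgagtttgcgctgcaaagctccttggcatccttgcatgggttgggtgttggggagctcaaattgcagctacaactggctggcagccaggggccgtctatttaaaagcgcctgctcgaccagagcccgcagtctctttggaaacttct
The Igfbp2 stretch was 67.2% G and C with 14 CpG pairs, and the Igfbp5 stretch 58.8% with 10, against a median of 52.4% over the same 250 bases of all 32851 RefSeq promoter windows. The single E-box of Igfbp2 (chr1:72824338-72824343) began 142 bases before the start. Igfbp2 has a second RefSeq window, not shown, whose 250 upstream bases (chr1:72825137-72825386) were 56.4% G and C with 11 CpG pairs and held no E-box. Promoter windows of 300 bases (250 before and 50 after a start) were at hand for 9 of the 10 genes (all but Igfbpl1), 13 windows in all, and the E-box was in 1 of them, against 7.15% of all windows. The letters TAATCC, the core motif of OTX factors such as the choroid plexus regulator OTX2, were searched on both strands and were also in 1 of the 13, an Igf2 window (chr7:142658789-142658794), against 7.06% of all windows. The E-box and TAATCC matches lie on different chromosomes and so could not overlap. These are matches of letters, and nothing on binding was measured.

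Total counts ranged from 23300710 to 30035148 in CTR mice and from 25755316 to 34447082 in SD mice. The quasi-likelihood test of edgeR was run on 15345 genes, of which 457 were called by the cutoffs of the study (unadjusted p up to 0.05 and a log2 fold change of 0.58 or more in either direction), 322 higher and 135 lower in SD mice. After Benjamini-Hochberg adjustment, 0 genes passed 0.05 in edgeR, while 1277 had an unadjusted p under 0.05 and 56 passed the adjusted threshold in DESeq2. CTR mouse 5 held 30044 Xist counts and 10 Ddx3y counts, where the other 5 mice held 0 to 20 and 1652 to 3090, so the libraries were not of one sex. The ribosomal precursor gene Rn45s took 1.84% of all reads counted for CTR mouse 1 and 0.164% to 0.231% for the other mice. Markers of hippocampal principal neurons summed to between 1242 and 1332 CPM (counts per 1000000 counted reads) in every mouse, and 0 of 12 were called. Libraries also differed in how much choroid plexus RNA they held, as given beside the genes it moves with.

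Across the family, 3 of 10 genes (Igfbpl1, Igfbp2 and Igf2) were called higher in SD mice and 0 lower, 30.0%, beside 2.98% of all genes tested (2.10% higher and 0.880% lower). Because these calls entered the choice of the genes, nothing is read from that contrast. The median log2 fold change was 0.10 over the family and 0.0015 over all genes. All 3 SD mice lay above all 3 CTR mice for Igfbpl1 and Igfbp2, which 6.11% of all genes did, and all 3 lay below for Igfbp6 and Igf1r, which 6.20% did. The groups overlapped for the other 6. In edgeR 4 members had an unadjusted p under 0.05 (Igfbpl1, Igfbp2, Igf2 and Igfbp6), as did 1277 of the 15345 genes tested. An adjusted p under 0.05 was reached by 0 members and by 0 of all genes. In DESeq2 Igfbpl1 was the only member among the 56 genes that passed the adjusted threshold. These p-values come from the contrast that chose the members and are no test of them. Levels are CPM scaled by the trimmed mean of M-values (TMM), errors of fold changes are standard errors (SE), and n = 3 mice per group in the main fit.

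**Figure D1:**
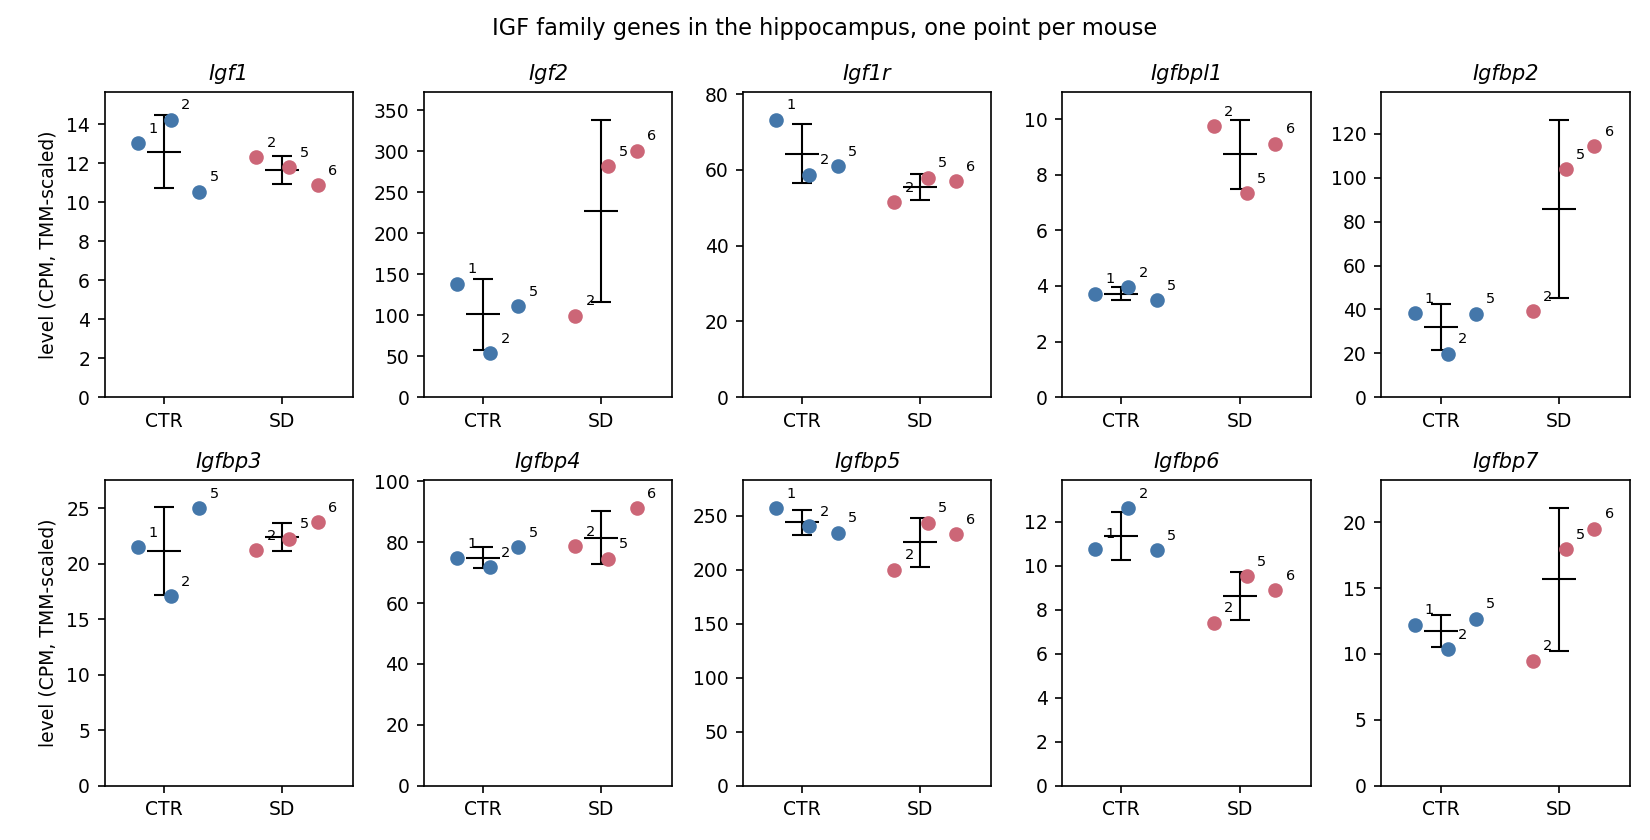
Level of each of the 10 genes in CPM (y axis, from 0) by group, with 1 point per mouse labelled with its number, and bars for the mean ± SD of 3 mice. Igfbpl1 is the gene in which the groups stand well apart, at 3.48 to 3.96 CPM in CTR mice and 7.34 to 9.74 CPM in SD mice, while for Igf2 and Igfbp2 SD mouse 2 sits at the level of the CTR mice.

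Among the ligands, Igf2 (chr7:142650766-142666816, minus strand), a growth factor gene expressed from the paternal copy in most mouse tissues, had CPM of 138, 53.8 and 111 in CTR mice 1, 2 and 5, against 99.5, 282 and 301 in SD mice 2, 5 and 6. SD mice 5 and 6 were high, SD mouse 2 lay within the range of CTR mice, and CTR mouse 2 was the lowest of the 6. The means were 101 ± 43.1 and 227 ± 111 CPM (SD), a log2 fold change of 1.17 (SE 0.40). The Igf2 call was lost in DESeq2 and without SD mouse 5 (0.99) or SD mouse 6 (0.92). Igf2 shares its strand and position with the annotated transcripts Gm49394 and Mir483, which were not analysed here, so reads of these could be counted with it. The antisense gene Igf2os was low, with 13, 4 and 20 counts in CTR mice against 12, 27 and 23 in SD mice.

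Igf1 (chr10:87858265-87937042, plus strand), the ligand that carries much of the growth hormone effect in the body, had CPM of 13.0, 14.2 and 10.5 in CTR mice against 12.3, 11.8 and 10.9 in SD mice. All 3 SD mice lay within the range of the CTR mice, and the log2 fold change was -0.11 (SE 0.13). Igf2 counts per Igf1 count, corrected for exon length, were 18.4, 6.55 and 18.2 in CTR mice against 14.0, 41.3 and 47.8 in SD mice, so the level of Igf2 per exon length was above that of Igf1 in every mouse.

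Igf1r (chr7:67952827-68233668, plus strand), the receptor of both ligands, had CPM of 73.2, 58.7 and 60.9 in CTR mice against 51.5, 57.9 and 57.0 in SD mice. The groups were separated by less than 1 CPM, between CTR mouse 2 and SD mouse 5. The log2 fold change was -0.21 (SE 0.10), short of the fold cutoff, and ranged from -0.27 to -0.11 when each mouse was left out.

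Igfbpl1 (chr4:45809468-45826923, minus strand), a secreted protein named for its likeness to the binding proteins and known in mice from developing neurons, had CPM of 3.72, 3.96 and 3.48 in CTR mice against 9.74, 7.34 and 9.12 in SD mice. The counts behind these levels were 85, 96 and 106 against 251, 217 and 315. Every SD mouse was well above every CTR mouse. The means were 3.72 ± 0.239 and 8.73 ± 1.24 CPM, a log2 fold change of 1.23 (SE 0.16) or 2.35-fold. The coefficient of variation of Igfbpl1 was 6.43% among CTR mice and 14.2% among SD mice. Its call held in both tools and without each mouse in turn (log2 fold change 1.15 to 1.34). Igfbpl1 was chosen by this same contrast, so the kept call is a description and no added support. Igfbpl1 is a low gene beside most of the family, so its fold rests on 85 to 315 counts per mouse.

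Igfbp2, a binding protein of the developing brain and of the choroid plexus in rodents, had CPM of 38.3, 19.8 and 38.0 in CTR mice against 39.3, 104 and 114 in SD mice. SD mice 5 and 6 were high, and SD mouse 2 exceeded the highest CTR mouse by about 1 CPM, so the lack of overlap was narrow. The means were 32.0 ± 10.6 and 85.8 ± 40.6 CPM, a log2 fold change of 1.42 (SE 0.36) or 2.68-fold, and 1.16 to 1.77 without each mouse in turn. Igf2 and Igfbp2 moved together over the libraries: Igf2 counts per Igfbp2 count were 3.61, 2.71 and 2.93 in CTR mice against 2.53, 2.71 and 2.63 in SD mice, while each of the 2 genes varied more than 5-fold over the mice.

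Igfbp7 (chr5:77349240-77408041, minus strand), a low-affinity member known from vessel walls, had CPM of 12.2, 10.4 and 12.7 in CTR mice against 9.47, 17.97 and 19.5 in SD mice. SD mice 5 and 6 were again the highest, and SD mouse 2 was the lowest of all 6. The log2 fold change of 0.42 (SE 0.23) was not called, but it was 0.67 and called without SD mouse 2. On the opposite strand Igfbp7 overlaps Polr2b, and counting was by strand.

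Igfbp6 (chr15:102144362-102149511, plus strand), which prefers IGF2 over IGF1, had CPM of 10.8, 12.6 and 10.7 in CTR mice against 7.41, 9.54 and 8.89 in SD mice. All SD mice lay below all CTR mice, at means of 11.4 ± 1.09 and 8.61 ± 1.09 CPM. The log2 fold change of -0.40 (SE 0.14) was under the fold cutoff, and stayed between -0.48 and -0.30 without each mouse in turn.

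The remaining binding proteins had log2 fold changes between -0.11 and 0.12. Igfbp5, the member of highest level per kilobase over the 6 mice but not in SD mice alone, had CPM of 257, 241 and 234 in CTR mice against 200, 244 and 233 in SD mice, a log2 fold change of -0.11 (SE 0.09). Igfbp4 (chr11:99041244-99054392, plus strand), a substrate of the protease PAPP-A, had CPM of 74.7, 71.7 and 78.4 against 78.7, 74.6 and 91.1, a log2 fold change of 0.12 (SE 0.09). Igfbp3 (chr11:7206086-7213923, minus strand), the main carrier of IGF in serum, had CPM of 21.5, 17.1 and 25.0 against 21.2, 22.2 and 23.7, a log2 fold change of 0.08 (SE 0.14) that turned to -0.05 without CTR mouse 2. The groups overlapped for all 3 of these genes, and 0 of them were called.

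**Figure D2:**
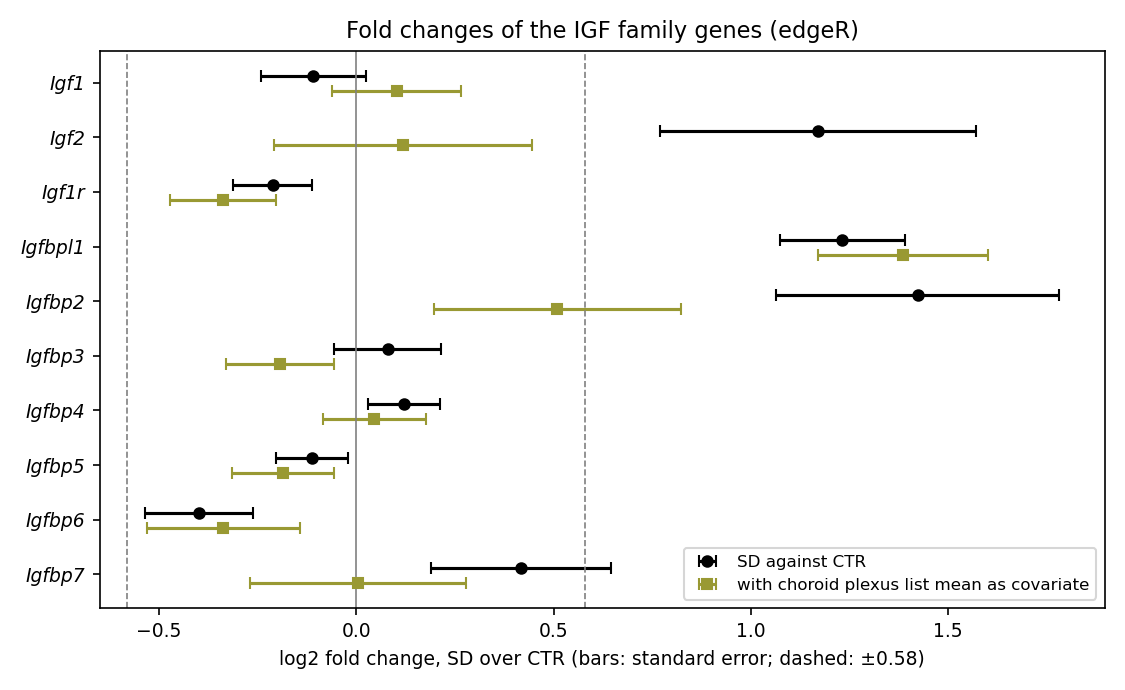
Log2 fold change of each gene, SD over CTR (x axis), with its SE, in the comparison of 3 against 3 mice (black circles) and with the mean of 18 choroid plexus genes as a covariate (olive squares); dashed lines mark the fold cutoff of 0.58. With the covariate Igf2 moved from 1.17 to 0.12 and Igfbp2 from 1.42 to 0.51, while Igfbpl1 went from 1.23 to 1.38.

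The order of the genes was taken from CPM per kilobase of exon, which allows levels of different genes to be compared. Over the 6 mice Igfbp5 led with 39.1 CPM per kilobase, followed by Igfbp2 (31.9), Igf2 (28.7), Igfbp4 (17.7), Igfbp7 (11.3), Igfbp6 (8.99), Igfbp3 (6.96), Igf1r (3.56), Igfbpl1 (1.92) and Igf1 (1.22). Neighbours in this order were compared within mice on log2 levels by an exact two-sided sign-flip permutation test over the 6 mice, 9 pairs in all, where the smallest p the design allows is 0.03125. Igfbp4 exceeded Igfbp7 in 6 of 6 mice by 0.69 on the log2 scale (exact p = 0.031, adjusted p = 0.094), Igfbp3 exceeded Igf1r in 6 of 6 by 0.96 (exact p = 0.031, adjusted p = 0.094), and Igf1r exceeded Igfbpl1 in 6 of 6 by 1.02 (exact p = 0.031, adjusted p = 0.094). The other 6 pairs of neighbours were not told apart by this test, with exact p-values from 0.0625 to 0.31. None of the 9 passed 0.05 after adjustment. With so few pairs at the smallest possible p, even pairs ordered alike in 6 of 6 mice could not pass it. The pairs were also picked as neighbours by these same levels, and the test pooled CTR and SD mice.

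The order differed between the group means. In CTR mice Igf2 (17.7 CPM per kilobase) came above Igfbp2 (17.3) and Igfbp6 (10.2) above Igfbp7 (9.72) and Igf1 above Igfbpl1, and in SD mice Igfbp2 (46.5) and Igf2 (39.7) both came above Igfbp5 (37.6). In CTR mice Igfbp5 stood at 40.6 ± 1.96 and Igfbp2 at 17.3 ± 5.72 CPM per kilobase, and in SD mice at 37.6 ± 3.79 and 46.5 ± 22.0. Of the summed level of the 7 binding protein genes, Igfbp2 held 19.2%, 11.5% and 19.3% in CTR mice against 22.0%, 38.4% and 39.7% in SD mice, and Igfbp5 held 39.5%, 42.8% and 36.6% against 34.4%, 27.7% and 24.9%. The SD mice with the large Igfbp2 share were again mice 5 and 6, while in SD mouse 2 Igfbp2 (21.3 CPM per kilobase) stayed below Igfbp5 (33.3). Igfbpl1 and Igf1 were the lowest genes in both groups, at 1.15 ± 0.0736 and 1.27 ± 0.190 CPM per kilobase in CTR mice and at 2.69 ± 0.383 and 1.18 ± 0.0728 in SD mice. With the length of the longest transcript in place of all exons, Igfbp2 came above Igfbp5 and Igfbp3 above Igfbp6, while the order stayed as it was with each mouse left out.

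**Figure D3:**
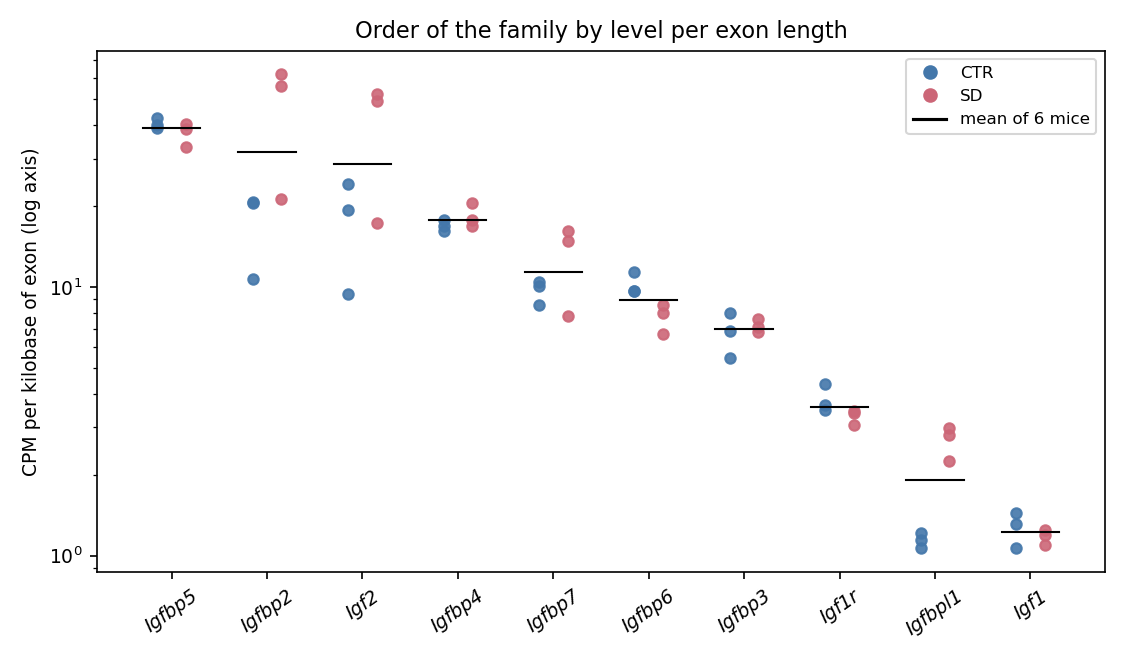
Level of each gene in CPM per kilobase of exon (y axis, log scale), ordered by the mean of 6 mice (black line), with 1 point per mouse, CTR in blue and SD in red. Igfbp2 and Igf2 span the widest ranges, from 10.7 to 61.9 and from 9.41 to 52.5, whereas the 6 Igfbp5 values lie between 33.3 and 42.8.

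Markers of choroid plexus epithelium, the tissue that makes cerebrospinal fluid and adjoins the hippocampus, moved with Igf2 and Igfbp2. The summed level of 18 such genes was 2847, 434 and 4783 CPM in CTR mice 1, 2 and 5, with 4103, 11513 and 11401 CPM in SD mice 2, 5 and 6. Most of that sum was Ttr (3322 CPM over the 6 mice) and Enpp2 (1992 CPM), so it mainly follows these genes. Of the 18, 17 were called higher in SD mice by edgeR and 9 by DESeq2, 0 were called lower, the edgeR median log2 fold change was 1.70, and none was at 0 in any mouse. Ttr, which encodes the thyroxine carrier transthyretin and was the gene not called by edgeR but called by DESeq2, had 1369, 103 and 2863 CPM in CTR mice against 2239, 6586 and 6771 CPM in SD mice. Enpp2, which encodes the enzyme autotaxin, had 1168, 275 and 1508 CPM in CTR mice against 1492, 3901 and 3606 CPM in SD mice. For the marker sum, as for Igf2 and Igfbp2, CTR mouse 2 was lowest and SD mice 5 and 6 were highest. The order was not the same throughout: SD mouse 5 led in the marker sum and SD mouse 6 in Igfbp2 (104 and 114 CPM in SD mice 5 and 6). Between the ends, Igf2 was 138, 111 and 99.5 CPM in CTR mice 1 and 5 and SD mouse 2, beside marker sums of 2847, 4783 and 4103 CPM. In bulk tissue, a change in how many cells of a type were sampled and a change in RNA per cell cannot be told apart.

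Mice of the 2 groups with like choroid plexus levels could be set side by side, 1 of each and with no test. CTR mouse 5 and SD mouse 2 had summed marker levels of 4783 and 4103 CPM, and in them Igf2 stood at 111 and 99.5 CPM and Igfbp2 at 38.0 and 39.3 CPM, whereas Igfbpl1 stood at 3.48 and 9.74 CPM. These are the lowest and the highest Igfbpl1 levels of the 6 mice, and CTR mouse 5 is the mouse with Xist counts, so the pair differs in sex as well as in group. With the mean log2 level of the 18 genes as a covariate, the log2 fold changes were 0.12 (SE 0.33) for Igf2, 0.51 (SE 0.31) for Igfbp2 and 0.0038 (SE 0.27) for Igfbp7, and none of these was called. Igfbpl1, chosen for its difference between these same groups, was still called, at 1.38 (SE 0.22). The covariate itself differed between the groups (centred log2 means of -0.306, -3.19 and 0.257 in CTR mice, 0.0924, 1.58 and 1.56 in SD mice), so group and choroid plexus content could be told apart only in part. Igf2 counts per 100 Ttr counts were 3.88 to 4.44 in the 4 mice with the highest marker sums, 10.1 in CTR mouse 1 and 52.2 in CTR mouse 2, the mouse with the least choroid plexus RNA, so Igf2 did not fall in step with Ttr there. Beside Kl, another of the 18 genes, the ratio spread less. Igf2 counts per Kl count were 1.66, 2.33 and 1.19 in CTR mice 1, 2 and 5, against 1.19, 1.31 and 1.33 in SD mice 2, 5 and 6.

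**Figure D4:**
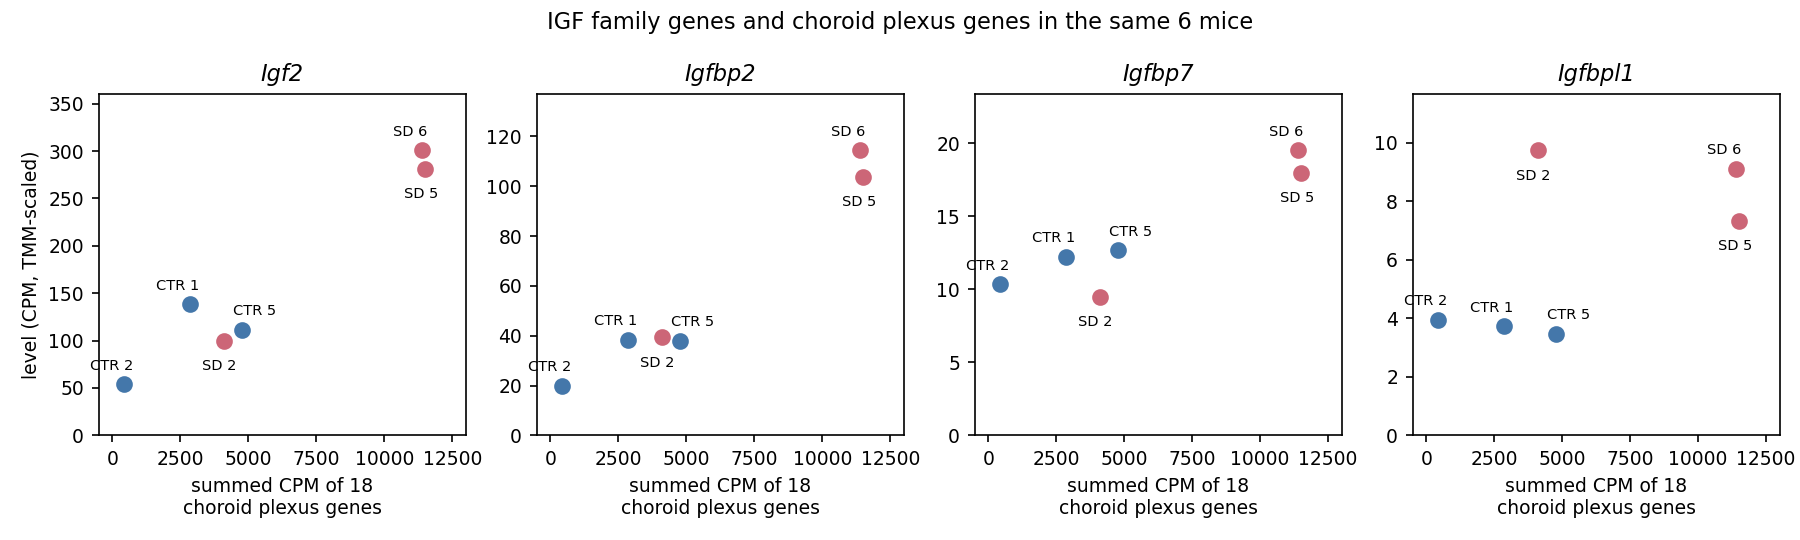
Level of Igf2, Igfbp2, Igfbp7 and Igfbpl1 in CPM (y axes) against the summed CPM of 18 choroid plexus genes (x axis), with 1 labelled point per mouse, CTR in blue and SD in red. Most of the sum on the x axis is Ttr and Enpp2. Igf2 and Igfbp2 are highest in SD mice 5 and 6, where the markers sum to 11401 CPM or more, and Igfbpl1 is at 9.74 CPM in SD mouse 2, which has the lowest marker sum of the SD mice, and at 7.34 CPM in SD mouse 5, which has the highest.

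Markers of the other cell types that the tissue could hold were read in the same way. Leptomeningeal fibroblast markers, the other known source of Igf2 in the brain, summed to 134 to 239 CPM in CTR mice and 168 to 196 CPM in SD mice, and of 13 genes 0 were called higher and 1, Fmod, lower. With their mean as a covariate Igfbpl1, Igfbp2 and Igf2 were all still called. This covariate had centred log2 means of 0.668, -0.383 and -0.216 in CTR mice, and -0.183, 0.161 and -0.048 in SD mice. Its average hardly differed between the groups, so it could move the fold changes little and nothing is read from the kept calls. Endothelial markers summed to 184 to 224 CPM against 152 to 216 CPM, and mural cell markers to 210 to 261 CPM against 213 to 220 CPM, with 0 of 10 called in each. Microglial, astrocyte and interneuron markers had 0 called of 10, 8 and 8, and oligodendrocyte markers 1 of 8 (Opalin, higher). Ependymal markers, of the cells that line the ventricles next to the choroid plexus, summed to 29.1 to 61.1 CPM against 56.3 to 70.7 CPM, with 4 of 10 called higher (Dynlrb2, Cfap52, Cfap126 and Mia). The part of ependyma in the levels of the family was not tested.

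For Igfbpl1, the markers of progenitors and immature neurons are the nearest in kind. They summed to 224, 238 and 254 CPM in CTR mice against 234, 241 and 216 CPM in SD mice, and 0 of the 10 tested were called. Stmn1 (56.6 CPM over the 6 mice), Tbr1 (54.5) and Calb2 (52.8) weigh most in that sum. Single genes went both ways, from -0.33 (SE 0.12) for Tbr1 to 0.48 (SE 0.29) for Mki67, with a median log2 fold change of 0.13. Dcx, the microtubule protein of immature neurons, which was looked at after its values were seen, had 36.3, 33.1 and 27.9 CPM against 36.7, 34.5 and 30.4 CPM, a log2 fold change of 0.06 (SE 0.12). Markers of thalamic neurons, from tissue that borders the hippocampus, summed to 151 to 337 CPM in CTR mice and 117 to 157 CPM in SD mice, with 7 of 8 called lower, and hypothalamic markers to 2.52 to 4.63 against 4.72 to 23.2 CPM, with 2 called higher (Trh and Hdc) of the 3 in the table, out of 9 listed. Trh alone made up 17.9 of the 23.2 CPM in SD mouse 2 and was at 0.550 CPM in SD mouse 6, below its lowest CTR value of 0.577 CPM. The part of these neighbouring regions in the Igfbpl1 level was not tested.

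Beyond the 10 members, a list of 55 genes of the pathway had 49 in the table, of which 2 were called higher in SD mice (H19 and Irs4), 0 lower and 47 not, beside 2.98% of all genes. The median log2 fold change was -0.03. H19, the maternally expressed noncoding RNA that neighbours Igf2 at a distance of 72622 bases, held 7, 4 and 5 counts in the CTR mice against 15, 13 and 17 in SD mice, a log2 fold change of 1.26 (SE 0.40) from few reads, and was not called in DESeq2 or with the choroid plexus covariate (1.26, SE 0.58), where Pappa2 and Irs4 were the pathway genes called higher. Irs4, an adaptor that the receptor phosphorylates, had 25, 12 and 22 counts against 126, 18 and 81, a log2 fold change of 1.75 (SE 0.62). SD mouse 5 lay among the CTR mice for Irs4, and the call was lost without CTR mouse 2 (1.53) or SD mouse 2 (0.96). Irs4 is known in mice from the hypothalamus, and the 3 hypothalamic markers, mainly Trh in SD mouse 2, summed to 23.2, 8.53 and 4.72 CPM in SD mice 2, 5 and 6; their part in the Irs4 level was not tested.

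Downstream of the receptor, 0 of 20 genes of the PI3K, AKT and mTOR branch were called, with log2 fold changes from -0.22 (Tsc1) to 0.26 (Eif4ebp1) and a median of -0.07. Among them the kinases Gsk3b and Gsk3a stood at -0.08 (SE 0.07) and -0.08 (SE 0.09). In 5 of the 20 (Pik3ca, Tsc1, Mtor, Rictor and Gsk3b) all SD mice lay below all CTR mice, which 6.20% of all genes did, and in 1 (Eif4ebp1, 1.31, 1.57 and 1.81 against 1.86, 1.86 and 1.91 CPM) all lay above, which 6.11% did; none of these 6 reached the fold cutoff. Over the 49 pathway genes 7 lay wholly below and 5 wholly above. Tsc1, a brake on mTOR, had the lowest log2 fold change of the 20 genes, with 96.7, 90.3 and 96.8 CPM against 81.8, 82.6 and 79.9 CPM. Of 10 receptor substrates and adaptors Irs4 alone was called, while Irs1 and Irs2, the main docking proteins of the receptor in neurons, had log2 fold changes of 0.04 (SE 0.11) and -0.03 (SE 0.10). Of 4 FOXO factors, which AKT keeps out of the nucleus, 0 were called. Of 7 genes for proteases of the binding proteins and related secreted proteins 0 were called, from -0.25 (Kazald1) to 0.68 (Esm1). The alternative receptors did not pass either: Insr was at -0.16 (SE 0.09) and Igf2r, which clears IGF2, at 0.00 (SE 0.13).

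The genes closest in pattern to the members were found by the root mean square difference of log2 CPM over the 6 mice, each gene centred on its own mean, among 14045 genes outside the family. Closest to Igf2 were Angptl2 (0.0924), Msx1 (0.155) and Pcolce2 (0.182), and closest to Igfbp2 were Msx1 (0.128), Baiap2l1 (0.154) and Pcolce2 (0.198). Msx1, a homeobox gene, had 13.0, 6.35 and 13.6 CPM in CTR mice against 12.8, 30.5 and 31.5 CPM in SD mice, the same high and low mice as both members. Closest to Igfbpl1 were Dnajb3 (0.116), Casr (0.263) and Fam47e (0.270), with Dnajb3 at 0.789, 0.949 and 0.690 CPM in CTR mice against 2.02, 1.56 and 1.71 CPM in SD mice. Closest to Igfbp7 were Serpinh1 (0.0831), Nudt7 (0.0904) and Sh3d19 (0.0957), and closest to Igf1 were Aph1a (0.0109), Ngef (0.0311) and Ddah1 (0.0317). Within the family the closest pairs were Igfbp5 with Igf1r (0.0860), Igfbp3 with Igfbp4 (0.136) and Igfbp2 with Igf2 (0.168). Genes that hardly vary are close to each other by this measure whatever their pattern, and the groups shared by all 6 mice enter every value.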

How the data were processed

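Hippocampal RNA of 3 CTR and 3 SD mice was sequenced after poly(A) selection. The labels' extraction text speaks of cells and spheroids and the study's methods of dissected hippocampal tissue, and this was not resolved. The deposited table holds raw counts per gene and mouse, which the authors obtained by trimming reads with Trim Galore, mapping them to mm10 with Hisat2 and counting with featureCounts by strand (-s 2) with multi-mapping reads included (-M), so reads of near-identical genes may be counted at several of them. Processing notes also name SAMtools and Picard. Not given in the sources used here are tool versions and the annotation used for counting. The table's columns of the authors' own DESeq2 comparison (mean, fold change, standard error, statistic, p, adjusted p and category) and the 3 further sheets were not used. Each count column was matched to the sample title it repeats.

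Counts were analysed in R 4.3.3 with edgeR 4.0.16 (filterByExpr, TMM, glmQLFit and glmQLFTest, no covariate, 15345 of 15423 genes kept), with Benjamini-Hochberg adjustment over all genes tested. The common biological coefficient of variation was 0.122, and, with litters unknown, p-values rest on the spread among 3 mice per group. DESeq2 1.42.0, other scalings and filters, leaving out each mouse, a replicate block and marker means as covariates were alternatives. The fit was tested on simulated data. Exon lengths and positions are from GENCODE M21 (GRCm38), promoter sequences from RefSeq (GRCm38.p6); protein sequences were not analysed here. Log2 CPM for likeness used a prior count of 2, and genes with a mean of at least 1 CPM. Genes named were all 10 members; of the pathway list those called and the 3 of highest level (1 of them is not reported here); for each called member, Igf1 and Igfbp7 the 3 genes of closest pattern; and the 2 highest genes of a marker list that moved with a member. Other genes named were chosen after their values were seen. The members and all lists were chosen with earlier results of these data known.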

Additional observations from a re-analysis of the deposited data

How the results depend on the processing

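Of the single-gene fold changes, 194 kept their direction and their side of the cutoffs, 10 lost the call, 1 gained it and 3 turned; the adjusted threshold, at which no gene was called, and H19 and Irs4 at a mean count of at least 50, for which they were too low, are not in this tally. The members called (3) stayed at 3 under DESeq2 size factors, upper quartile factors, no filter, a mean count of at least 50, the replicate block and the leptomeningeal covariate, were 2 in DESeq2, 2 to 4 without each mouse in turn, 1 with the choroid plexus covariate and 0 at an adjusted p under 0.05. Igfbpl1, chosen as the gene of smallest p-value in this contrast, was called in all of these except the last. The calls over all genes (457) fell to 265 with a mean count of at least 50, 302 with the choroid plexus covariate and 0 at an adjusted p under 0.05, and ranged from 242 (without SD mouse 6) to 707 (without CTR mouse 5). The pathway genes called higher (2) were 1 in DESeq2, 0 with a mean count of at least 50, 0 at an adjusted p under 0.05, and 1 to 3 without each mouse in turn. With the choroid plexus covariate 1 pathway gene, Ins2, was called lower, and Igfbp3 turned to -0.19 and Igf1 to 0.10. Igfbp3 ranged from -0.054 to 0.22 without each mouse in turn. With the longest transcript as length, 6 of 10 members kept their rank.

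Mice 2 and 5 carry the same numbers in both groups. Their deviations from the group means correlated at 0.208 and 0.116 across genes, over 2 pairs. Pairs of unlike number lay between -0.155 (CTR mouse 2 with SD mouse 6) and 0.118 (CTR mouse 1 with SD mouse 6). Nothing in the labels ties a number to a litter or day, so whether these mice share more than a number is not known. The replicate block leaves CTR mouse 1 and SD mouse 6 without a partner, so its fold changes rest on mice 2 and 5 of each group alone. In that fit 315 genes were called, 3 members among them (Igfbpl1 1.19, Igfbp2 1.23 and Igf2 1.12), and Irs4 was not (1.64).

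Depth limits H19 and Ins2, at 4 to 17 and 1 to 106 counts per mouse, and leaves Igfbpl1 with 85 to 315.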

Other observations

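Ins2, the insulin gene that lies 11839 bases from Igf2 on the same strand, held 106, 1 and 9 counts in CTR mice 1, 2 and 5, against 7, 26 and 44 in SD mice 2, 5 and 6. CTR mouse 1 stood apart from the other 5, and the log2 fold change was -0.95 (SE 1.03). Ins2 was called higher without CTR mouse 1 and with the replicate block, and lower with the choroid plexus covariate, so its direction rests on the setting. CTR mouse 1 was also the mouse with the largest Rn45s share, 1.84% of counts, and the highest leptomeningeal marker sum, 239 CPM. Igf2, Igf2os and Ins2 had their lowest CPM in CTR mouse 2, and H19 in CTR mouse 5 (0.164 CPM, beside 0.165 in CTR mouse 2). The highest CPM lay in SD mouse 6 for Igf2, in SD mouse 2 for H19, in SD mouse 5 for Igf2os and in CTR mouse 1 for Ins2. Of the 4 genes H19 alone had groups that did not overlap.

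Grb14, an adaptor that binds active insulin and IGF receptors and dampens them, had 31.8, 38.9 and 30.2 CPM in CTR mice against 41.0, 44.5 and 42.7 CPM in SD mice. All SD mice lay above all CTR mice, as in 6.11% of genes, and the log2 fold change of 0.35 (SE 0.11) was under the fold cutoff. Igf2bp2, which encodes an RNA binding protein named for its binding to Igf2 transcripts, had 0.438, 0.412 and 0.460 CPM against 0.466, 0.744 and 0.695 CPM, a log2 fold change of 0.54 that was not called. Both were chosen after their values were seen.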
